A study of Mus musculus with 8 samples.

Results

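The Myc family of the mouse lens was described here at the level of chromatin accessibility, at the genes Myc, Mycn and Mycl and at Max, which encodes their common partner. ATAC-seq uses a transposase that cuts accessible DNA, so that sequenced fragments pile up at open chromatin. The members were the 4 genes named, chosen by name and not by any measured value, but with earlier results of these data known. Each was taken as its RefSeq GRCm38 gene body with 50 kb added on each side. Every peak that overlapped such a window by at least 1 bp was used. The windows held 97 of the 185368 regions that remained after the 4 peak lists were merged, 7 at Myc, 14 at Mycn, 36 at Mycl and 40 at Max. Before merging, the windows overlapped 45 of 100003 epithelial and 68 of 123743 fiber peaks at E14.5, and 29 of 58592 epithelial and 35 of 62995 fiber peaks at P0.5.

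The study compared micro-dissected epithelium and fibers of the lens in CD1 mice, an outbred strain, in embryos (E14.5) and newborns (P0.5), with no transgene, deletion or treatment in any group. Each of the 4 groups had 2 libraries, from pooled lenses, and the 2 libraries of a group were pooled again before its peaks were called. The processed data are therefore 1 peak list per group. Reads and values per library were not used here, so that no value below has an error between replicates, no difference was tested, and read depth was not analysed here. In dissected tissue, a smaller share of cells with open chromatin and less opening per cell cannot be told apart.

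Myc, N-Myc and L-Myc are basic helix-loop-helix leucine zipper transcription factors that bind the E-box CACGTG as dimers with Max and drive genes of growth, ribosome production and cell division. Max also pairs with itself and with the repressors of the Mxd group, Mnt and Mga, which compete for the same E-boxes. In the mouse lens, deletion of Myc or of Mycn is known to reduce lens growth. The anterior epithelium holds the dividing cells, and fibers leave the cell cycle, elongate and later lose their nuclei.

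The sequences at the start sites of the members differed in the motifs they held. The RefSeq promoter table (GRCm38.p6, 32851 promoters of 250 bases before to 50 after a start site) held 3 of the 4 members, Mycn, Mycl and Max, and not Myc. The stretches below run 5′ to 3′ on the strand of the gene, from 190 bases before the start site to 30 bases from it on, and are shown because the peak over the start site overlapped them in each list. They are chr12:12941807-12942026 on the minus strand for Mycn, chr4:122995741-122995960 on the plus strand for Mycl and chr12:76962219-76962438 on the minus strand for Max. Capitals mark matches, on either strand, to any of the 12 short motifs searched.
Mycn promoter: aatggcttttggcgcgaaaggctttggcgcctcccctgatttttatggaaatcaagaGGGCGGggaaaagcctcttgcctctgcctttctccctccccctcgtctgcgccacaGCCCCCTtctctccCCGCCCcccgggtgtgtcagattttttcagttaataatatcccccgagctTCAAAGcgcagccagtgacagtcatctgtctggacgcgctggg
Mycl promoter: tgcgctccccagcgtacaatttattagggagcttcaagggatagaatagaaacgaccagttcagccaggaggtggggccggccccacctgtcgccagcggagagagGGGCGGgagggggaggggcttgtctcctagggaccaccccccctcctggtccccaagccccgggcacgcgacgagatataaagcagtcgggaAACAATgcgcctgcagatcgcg
Max promoter: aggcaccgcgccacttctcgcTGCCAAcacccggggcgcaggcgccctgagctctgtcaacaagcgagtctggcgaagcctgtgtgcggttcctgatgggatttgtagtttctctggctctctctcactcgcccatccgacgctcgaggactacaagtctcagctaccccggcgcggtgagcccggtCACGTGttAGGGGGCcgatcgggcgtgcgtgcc

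The motifs were the Myc/Max E-box CACGTG, Tead GGAATG, Maf TGCTGA, AP-1 TGANTCA, Ets CCGGAA, Tcf/Lef CTTTGA, E2F GGCGGGAA, Sp/Klf GGGCGG, the NF1 half-site TTGGCA, the CTCF core AGGGGGC, Sox AACAAT and Stat TTCNNNGAA. An E2F match that follows a G also holds the Sp/Klf letters. The Max promoter held the E-box, whose first base lay at -3 from the start site, followed by a CTCF core at base 6 and preceded by an NF1 half-site at -169. Of all promoters in the table, 7.15% held the E-box, 10.6% the CTCF core and 14.1% the NF1 half-site. The Mycn promoter held 2 Sp/Klf matches, which begin at -133 and -63, a CTCF core at -77 and a Tcf/Lef match at -13. Mycl held 1 Sp/Klf match at -84 and a Sox match at base 9. Sp/Klf letters stood in 35.7% of all promoters, Tcf/Lef letters in 16.0% and Sox letters in 10.7%. The 3 promoters lay above the median in CpG, with 14 CpG at Mycn, 22 at Mycl and 30 at Max in 300 bases against a median of 7, and with a GC content of 56.7%, 64.0% and 64.7% against a median of 52.7%. A match describes the letters in the window and is not evidence of a bound factor.

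A few open regions outside promoters recur in the results below as being among the strongest of their windows, and 160 bases around the summit of each are printed in the same way, on the plus strand of GRCm38. The region 37.0 kb downstream of the Mycn start site (chr12:12904740-12904899) was called in all 4 lists. The second lies in intron 2 of Mycl (chr4:122998646-122998805) and was called in all 4 lists too. The other 3 belong to Max. They lie in intron 3 at 20.4 kb (chr12:76941741-76941900), called in both fiber lists, in intron 3 at 18.5 kb (chr12:76943691-76943850) and at -7.01 kb (chr12:76969179-76969338), the last pair called in E14.5 fibers alone.
Mycn, 37.0 kb downstream: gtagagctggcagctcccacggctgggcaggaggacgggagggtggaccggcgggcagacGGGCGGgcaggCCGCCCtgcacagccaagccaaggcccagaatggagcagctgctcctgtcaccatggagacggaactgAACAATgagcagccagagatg
Mycl, intron 2: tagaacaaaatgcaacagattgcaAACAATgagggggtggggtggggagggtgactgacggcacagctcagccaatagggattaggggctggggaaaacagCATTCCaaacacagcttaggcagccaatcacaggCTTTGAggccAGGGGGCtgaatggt
Max, intron 3 at 20.4 kb: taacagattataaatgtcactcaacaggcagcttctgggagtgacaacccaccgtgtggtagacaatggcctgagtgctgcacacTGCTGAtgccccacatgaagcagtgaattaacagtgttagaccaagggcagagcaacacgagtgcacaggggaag
Max, intron 3 at 18.5 kb: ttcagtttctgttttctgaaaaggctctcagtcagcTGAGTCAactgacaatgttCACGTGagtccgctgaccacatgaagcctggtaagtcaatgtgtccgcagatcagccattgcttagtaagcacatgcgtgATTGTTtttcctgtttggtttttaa
Max, -7.01 kb: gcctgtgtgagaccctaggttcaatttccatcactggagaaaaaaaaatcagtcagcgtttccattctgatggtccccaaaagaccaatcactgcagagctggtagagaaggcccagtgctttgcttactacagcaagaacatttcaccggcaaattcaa

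In the printed bases the Mycn region held 2 Sp/Klf matches and a Sox match. The Mycl intron held Tead, Tcf/Lef, CTCF core and Sox letters. The fiber region of Max at 20.4 kb held a Maf match, and the one at 18.5 kb an AP-1 match, the E-box and a Sox match. No motif of the 12 stood in the printed bases at -7.01 kb. In the 200 bp used for the counts below, this region held a Tcf/Lef match, and the one at 18.5 kb also a Tead match.

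The strength of a peak is given as its place, as a percent of its own list. The place is the rank of its fold enrichment (reads at the summit over background) within that list. A low percent is a strong peak. Fold enrichment itself was not compared between lists, and peaks with equal fold enrichment shared the best rank. Because many weak peaks in a long list make every percent lower, the rank of a gene among all protein-coding genes with a promoter peak in that list is given beside it. A promoter peak was any peak within 2 kb of a curated RefSeq start site.

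All 4 members had a promoter peak in each of the 4 lists. Of 21000 protein-coding genes, 70.3% had one in epithelium and 71.2% in fibers at E14.5, 67.0% and 64.6% had one at P0.5, and 60.6% had one in all 4. An open promoter in every list was thus the more common state of a coding gene. The median places of these genes were 7.68%, 6.10%, 12.8% and 10.3% in the same order of lists.

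**Figure D1:**
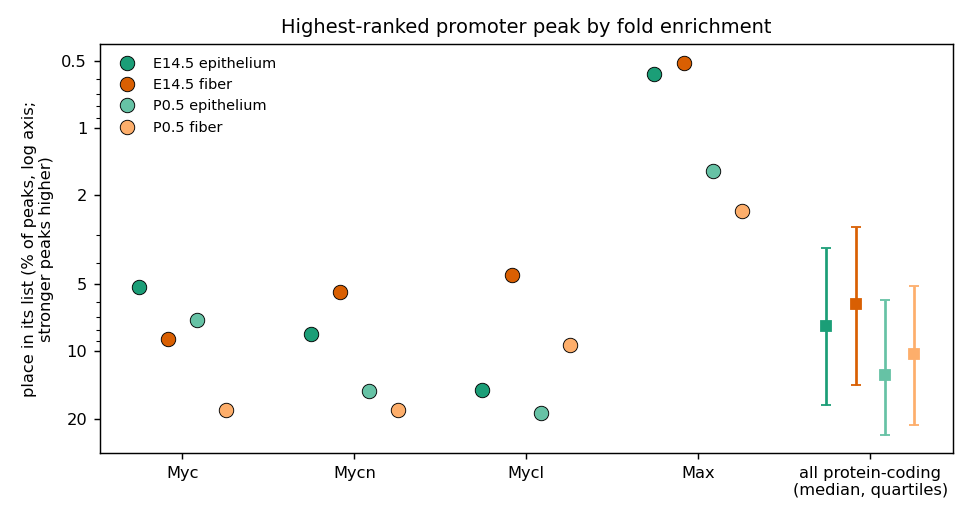
Place of the highest-ranked promoter peak of Myc, Mycn, Mycl and Max in the 4 pooled peak lists (vertical log axis in % of the list, inverted so that stronger peaks stand higher; 1 point per list). Squares and bars give the median and quartiles over all protein-coding genes with a promoter peak, and Max stands above every other member in each list.

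Max had the strongest promoter of the 4 in every list. The gene lies on chromosome 12 from 76937269 to 76962323, on the minus strand. Its promoter peak stood at 0.571% in epithelium and 0.509% in fibers at E14.5, and 1.56% and 2.35% at P0.5. Each was a single peak over the start site, between 1090 and 1747 bp wide, with its summit between -145 and -117 bases from the start site. Among the coding genes with a promoter peak Max ranked in the top 4.40%, 4.74%, 6.96% and 11.4% in the same order, so that its standing was higher at E14.5 than at P0.5 in both tissues. The 2 places at E14.5 lay close to each other and their order was not stable, because with the 58592 strongest peaks of each list they were 0.975% in epithelium and 1.08% in fibers. Summit positions of the 2 fiber lists differed by 2 bases, and those of the 2 epithelium lists by 1 base.

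Myc, on chromosome 15 from 61985341 to 61990361 on the plus strand, had its stronger promoter peaks in epithelium. Its highest-ranked promoter peak stood in epithelium at 5.15% at E14.5 and 7.24% at P0.5, in both with the summit in the 5′ UTR of exon 1 (161 and 116 bases after the start site). In fibers it stood at 8.77% at E14.5 and at 18.2% at P0.5. Among coding genes these are ranks of 36.0% and 30.2% in epithelium against 62.8% and 68.6% in fibers, so that epithelium stood above fibers at both stages. The same order held with equal numbers of peaks, at 8.80% against 18.5% at E14.5 and 7.24% against 19.5% at P0.5. The order of the stages in epithelium did not hold in that setting, where P0.5 stood above E14.5.

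The P0.5 fiber list also differed from the other lists in the shape of the opening at Myc. In E14.5 fibers the peak over the start site was 4162 bp wide, reached past exon 2 and stood at 11.5%. In E14.5 epithelium 2 peaks, of 2236 and 1852 bp, lay over the same stretch, and in P0.5 epithelium 3 peaks did. The 8.77% of E14.5 fibers belonged to a separate peak at -1.86 kb. In epithelium the upstream region stood at 8.62% at E14.5 and 19.6% at P0.5, but fibers had no peak there at P0.5. In that list the start site itself was covered by no peak. There 5 short peaks stood in the place of the wide one, with summits from -354 bases to 2.72 kb from the start site, at 18.2%, 34.7%, 69.2%, 48.9% and 14.0% in the direction of transcription. The strongest of them lay in exon 2, beyond the 2 kb of the promoter.

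Mycn lies on the minus strand of chromosome 12 from 12936093 to 12941836, and its order between tissues turned from one stage to the other. At E14.5 the promoter peak stood at 8.38% in epithelium and 5.42% in fibers. At P0.5 it stood at 15.1% in epithelium and 18.2% in fibers. The ranks among coding genes were 53.1% and 45.4% at E14.5 and 55.6% and 68.6% at P0.5, so that Mycn lay near the middle of all genes in 3 lists and lower in P0.5 fibers. There the 18.2% belonged to a peak 1.75 kb after the start site, in intron 1 and exon 2, and the peak over the start site stood at 21.4%. At E14.5 a peak of 2451 bp in epithelium and 3411 bp in fibers ran from upstream of the start site into exon 2 (in fibers, past it), whereas 4 shorter peaks were called over the same stretch in each P0.5 list. Myc and Mycn shared the value of 18.2% in P0.5 fibers because fold enrichment takes few distinct values there, and both peaks had a fold enrichment of 6.02.

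Mycl, on the plus strand of chromosome 4 from 122995588 to 123002490, was the member whose promoter stood higher in fibers at both stages. Its promoter peak stood in fibers at 4.56% at E14.5 and 9.32% at P0.5, against 14.8% and 18.8% in epithelium. The ranks among coding genes were 39.3% and 42.9% in fibers against 71.2% and 64.6% in epithelium. Equal numbers of peaks left the order of the tissues (9.63% against 25.3% at E14.5 and 10% against 18.8% at P0.5) but turned that of the stages in epithelium. The peak covered the start site in each list and had widths of 1384 to 2803 bp. It reached past exon 2 in 3 lists and ended inside exon 2 in P0.5 epithelium.

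Read down each list, the order of the members was Max, Myc, Mycn, Mycl in both epithelium lists, and Max, Mycl, Mycn, Myc in E14.5 fibers. In P0.5 fibers it was Max, Mycl and then Myc and Mycn together. Myc thus stood above Mycl in epithelium and below it in fibers. Without values per library, it cannot be said which neighbours in these orders differ beyond the spread between replicates.

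For each member, the 3 coding genes with the most similar places over the 4 lists were sought by the distance of their log10 places, out of 12726 genes with a promoter peak in every list. Nearest to Myc were Wtip, Dkc1 and Trim35 at distances of 0.0819, 0.0885 and 0.0890. Mycn was nearest to Plekhm3 (0.0588) and to E2f4 and Exoc3l (both 0.0704, with the same 4 places). Mycl was nearest to Celsr1 (0.0852), Basp1 (0.0855) and Knl1 (0.141), and Max to Nup98 and Pgap2 (both 0.0730, with the same 4 places) and Asf1b (0.130). Several of these distances lie close together, over 4 lists only.

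Beyond the promoters, the windows also differed in the number of peaks. Over the Max window there were 11 peaks in epithelium and 31 in fibers at E14.5, and 1 and 8 at P0.5. Per 100 kb these are 8.80, 24.8, 0.800 and 6.40 peaks, where the medians over the windows of all coding genes were 5.64, 7.09, 3.57 and 3.55. The surplus of E14.5 fibers over E14.5 epithelium, 16.0 peaks per 100 kb, was larger than at 99.0% of the coding windows, and that of E14.5 fibers over P0.5 fibers, 18.4, was larger than at 98.4%. With equal numbers of peaks per list 14 stayed in fibers and 5 in epithelium at E14.5, beside 8 in fibers at P0.5. In bases covered, E14.5 fibers at Max exceeded 78.9% of the coding windows, against 92.5% in peaks per 100 kb. The single P0.5 epithelium peak was the promoter itself.

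**Figure D2:**
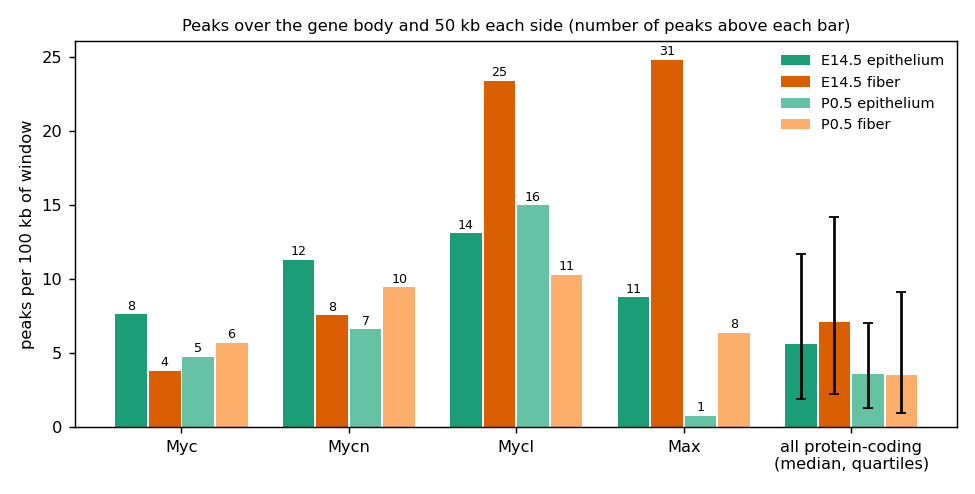
Peaks per 100 kb over the gene body and 50 kb on each side of the 4 members in each pooled list, with the number of peaks above each bar. The last bars give the median over all protein-coding windows and their quartiles, and the E14.5 fiber bars of Mycl (25 peaks) and Max (31 peaks) stand above the upper quartile of 14.2.

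Mycl had 14 peaks in epithelium and 25 in fibers at E14.5, and 16 and 11 at P0.5. In P0.5 epithelium its 15 peaks per 100 kb exceeded the density at 95% of the coding windows. E14.5 fibers had 10.3 more peaks per 100 kb than E14.5 epithelium, larger than at 96.5% of the windows, and 13.1 more than P0.5 fibers, larger than at 95.9%. The differences that involve P0.5 epithelium lay at the other end. P0.5 fibers minus P0.5 epithelium gave -4.68 peaks per 100 kb, with 1.30% of coding windows lower. E14.5 minus P0.5 in epithelium gave -1.87, against 1.81 at the median window, with 0.971% lower. With equal numbers of peaks the counts were 11, 13, 16 and 10, so that E14.5 fibers no longer led. With a q value under 0.001 epithelium had 14 peaks at E14.5 and 12 at P0.5, so that the difference between the stages changed sign, while P0.5 fibers had 7 and stayed below P0.5 epithelium.

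Over Myc there were 8 in epithelium and 4 in fibers at E14.5, and 5 and 6 at P0.5. Over Mycn there were 12, 8, 7 and 10 in the same order. Per 100 kb these are 7.62, 3.81, 4.76 and 5.71 peaks at Myc, above the coding medians except in E14.5 fibers, and 11.3, 7.57, 6.62 and 9.46 at Mycn, above the median in every list. In both windows E14.5 fibers had fewer peaks than E14.5 epithelium, a difference of -3.81 per 100 kb at Myc and -3.78 at Mycn, with 5.95% and 6.04% of coding windows lower. With equal numbers of peaks the counts were 5 and 3 at Myc, but 5 and 5 at Mycn, where the difference was gone. Part of these counts reflects width, since 1 wide peak of E14.5 fibers lay where other lists called 2 to 5. The bases covered tell it differently. At E14.5 peaks covered 5819 bp over Myc in epithelium and 5567 bp in fibers, and 5568 bp and 8002 bp over Mycn. At Mycn, fibers had the fewer peaks and the more covered bases.

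**Figure D3:**
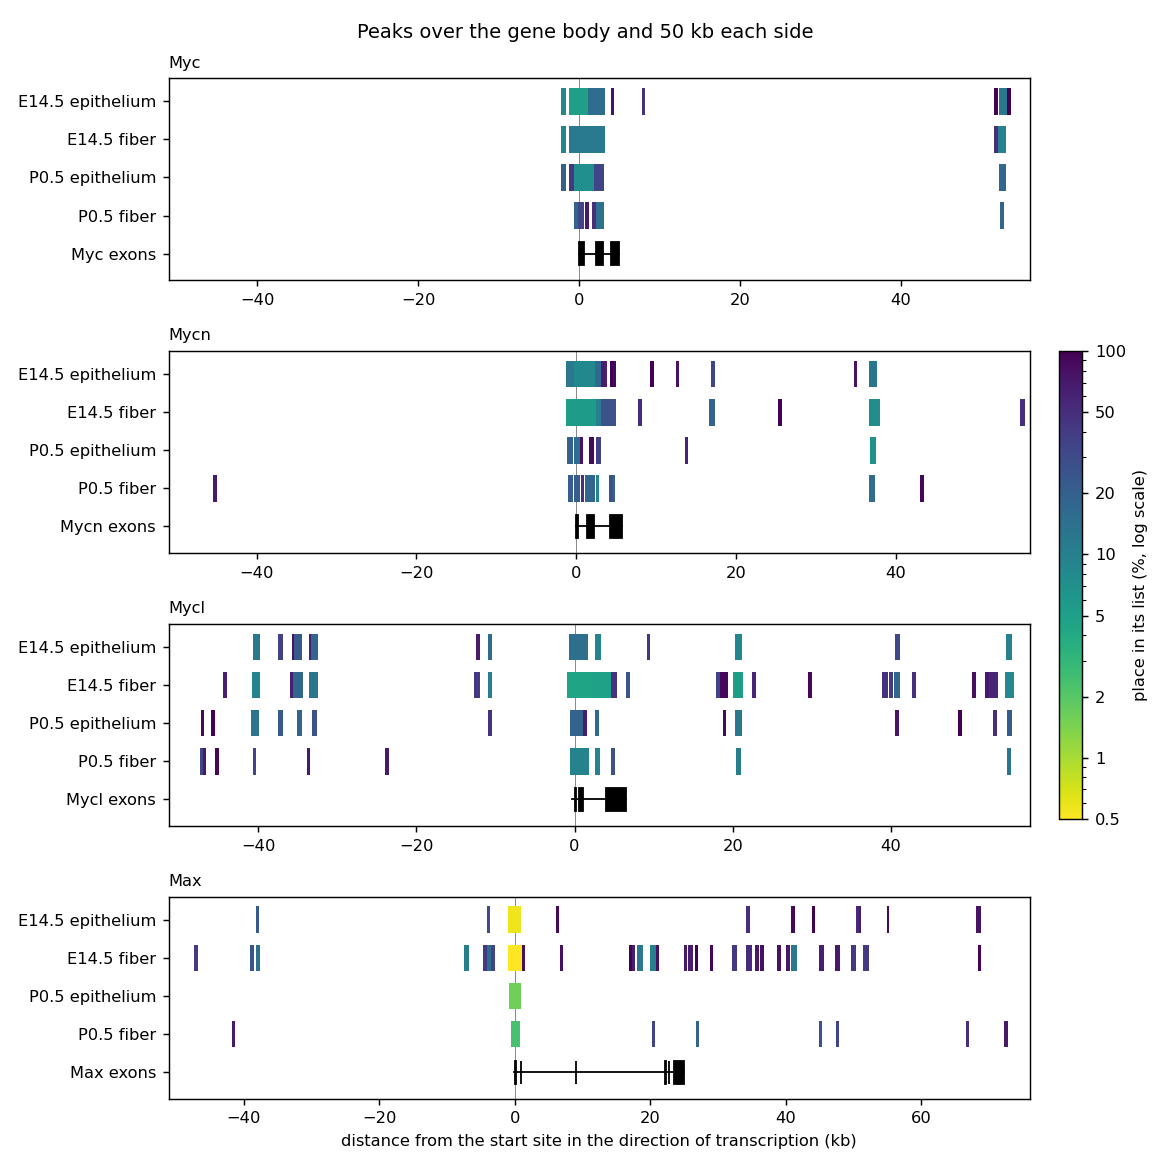
Peaks over the 4 member windows by list, drawn at their distance from the start site in the direction of transcription (horizontal axis in kb; black bars are exons, drawn with an outline so that short ones show). Colour gives the place of each peak (% of its list, log scale, yellow strongest), narrow peaks are drawn at a minimum width, and the Max window holds 31 peaks in fibers at E14.5 and 1 in epithelium at P0.5.

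Merged at a distance of 10 bp, the 97 regions were called in few lists. A single list called 66 of them (68.0%, against 59.5% of all merged regions), and all 4 lists called 11 (11.3%, against 10.9%). The share called in 1 list was 42.9% at Myc, 64.3% at Mycn, 63.9% at Mycl and 77.5% at Max. Called in all 4 lists were 2 regions at Myc, 3 at Mycn, 5 at Mycl and 1 at Max, of 7, 14, 36 and 40. At Max, the promoter was thus the only region that every list shared.

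**Figure D4:**
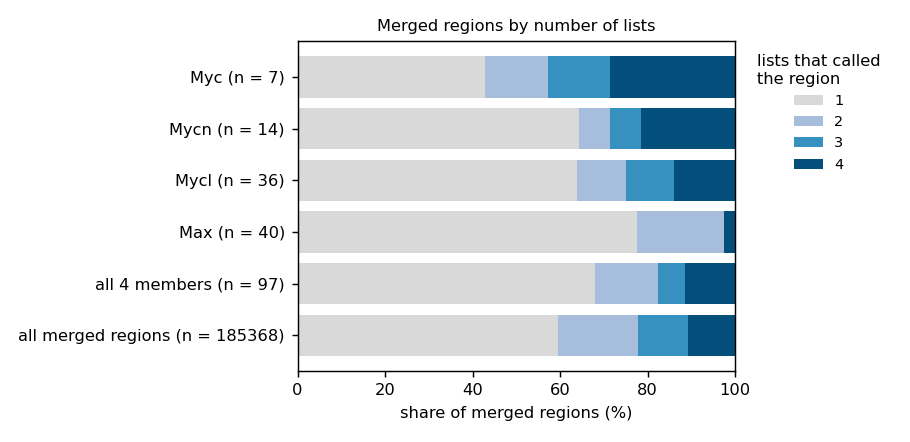
Share of merged regions (horizontal axis in %) called in 1, 2, 3 or 4 of the pooled lists, for each member, for the 4 together (n = 97) and for all merged regions (n = 185368). The share called in 1 list is 77.5% at Max and 42.9% at Myc, against 59.5% overall.

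E14.5 fibers alone called 38 of the 97 regions (39.2%, against 29.3% of all merged regions), of which 22 lay at Max, 13 at Mycl, 3 at Mycn and 0 at Myc. In lists of equal length this count was 14 of 59 (23.7%, against 12.5%), with 10 at Max and 4 at Mycl, and P0.5 fibers alone called 13 (22.0%, against 23.1%). Most of the 38 were weak. Those at Mycl stood between 25.2% and 90.1% of the list, and of those at Max only the regions at -7.01 kb (10.4%), at 18.5 kb in intron 3 (11.9%) and at -38.9 kb in an intron of Gm35041 (25.2%) stood at 25.2% or better. Both fiber lists and no other called 4 regions (4.12%, against 2.43%), 3 at Max and 1 at Mycl. In lists of equal length the pattern held 2 regions (3.39%, against 1.86%), of which only the Max region at 20.4 kb was among the 4, and the other lay in exon 3 of Mycn. At E14.5 the strongest of the 4 was the intron 3 region of Max at 20.4 kb, at 9.88%. At P0.5 it stood at 34.7%, below the Mycl region and the Max region at 45.2 kb, both at 26.4%. The Mycl region of this kind lay in the 3′ UTR of exon 3, at 45.8% and 26.4%.

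E14.5 epithelium alone called 12 regions (12.4%, against 12.9%), at places of 43.5% or weaker. Both E14.5 lists and no other called 8 (8.25%, against 11.4%), 5 of them at Max. The fiber place was the stronger in 6 of the 8, as in an exon of Fntb 41.0 kb downstream of the Max start site, at 87.9% in epithelium and 12.3% in fibers. Fntb encodes the beta subunit of protein farnesyltransferase. A Max region at -3.83 kb stood at 29.0% in epithelium and 14.6% in fibers, and one at -38.0 kb at 22.5% and 13.6%. P0.5 epithelium alone called 5 regions (5.15%, against 4.63%), 4 at Mycl and 1 at Mycn, at 58.5% or weaker. P0.5 fibers alone called 11 (11.3%, against 12.6%), the strongest 26.9 kb downstream of the Max start site at 18.2%.

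The 4 comparisons of the design were described by which list of a pair called a region. Each list enters 2 of them, so the comparisons are not independent. Between the tissues at E14.5, 81 regions over the members were called in either list. Epithelium alone called 13 (16.0%, against 19.7% of all merged regions), fibers alone 43 (53.1%, against 40.1%) and both 25. Most of the fiber regions lay at Max, with 25 of 36, and Mycl, with 15 of 27. Mycn had 3 of 11 on each side, and at Myc epithelium alone called 3 of 7 and fibers alone 0. With equal numbers of peaks the counts were 5 (12.5%, against 20.8%) and 16 (40.0%, against 24.8%).

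At P0.5, 39 regions over the members were called in either tissue. Epithelium alone called 12 (30.8%, against 35.2%), fibers alone 16 (41.0%, against 39.6%) and both 11. These shares lay close to those of all regions. The members differed from each other, with 10 of 21 in epithelium alone at Mycl, and 7 of 8 in fibers alone at Max. Only 48.9% of all P0.5 fiber peaks had a q value under 0.001, and at that threshold fibers alone called 7 regions (26.9%, against 18.4%) and epithelium alone 8 (30.8%, against 51.0%).

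Between the stages the members' shares lay near those of the whole lists, of which the P0.5 lists were the shorter. In epithelium, 21 of 44 regions (47.7%, against 49.7%) were called at E14.5 alone, 6 (13.6%, against 11.2%) at P0.5 alone and 17 at both stages. In fibers, 52 of 79 (65.8%, against 62.5%) were called at E14.5 alone, 11 (13.9%, against 17.6%) at P0.5 alone and 16 at both. Max gave the largest share of E14.5 regions in both tissues, with 10 of 11 in epithelium and 27 of 35 in fibers. At Mycl in epithelium 2 of 17 were called at E14.5 alone, 5 at P0.5 alone and 10 at both, but the surplus at P0.5 rests on weak peaks, and with a q value under 0.001 the counts were 2 and 1. In lists of equal length, 7 regions in epithelium were called at E14.5 alone (23.3%, against 27.0%) and 6 at P0.5 alone (20%, against 22.4%), so that the surplus at E14.5 was nearly gone. In fibers the counts were then 22 (45.8%, against 40.4%) and 13 (27.1%, against 33.0%).

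A small set of strong regions outside the promoters recurred across the lists. At Mycn, the region 37.0 kb downstream, between genes, stood at 12.5% in epithelium and 7.48% in fibers at E14.5, and 6.64% and 15.7% at P0.5. In both P0.5 lists it ranked above the promoter peak of Mycn, at 15.1% and 18.2%. The region in intron 2 of Mycn, 2.67 kb after the start site, stood at 16.8%, 10.9%, 36.4% and 8.49% in the same order of lists and was the strongest Mycn peak in P0.5 fibers. In the coding part of exon 3 of Mycn, fibers had summits at 26.1% at E14.5 and at 18.2% and 26.4% at P0.5. Epithelium had summits there at 87.9% and 97.0% at E14.5 and none at P0.5.

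At Mycl, the region in intron 2 stood at 9.01% in epithelium and 4.89% in fibers at E14.5, and 16.5% and 9.32% at P0.5. It ranked above the promoter peak in both epithelium lists, level with it in fibers at P0.5 and just below it there at E14.5. The higher places in fibers were thus seen at the promoter and at the intron alike. In E14.5 fibers its peak was 2068 bp wide and reached exon 3, against 231 to 476 bp in the other lists. The other regions of the Mycl window called in all lists lay at its neighbours. Trit1, a tRNA-modifying enzyme whose start site lies 20.7 kb away, had promoter places of 8.76%, 5.38%, 11.8% and 10.3%. Mfsd2a, a transporter of lysophospholipids whose start site lies at -34.7 kb, had promoter places of 17.8%, 13.1%, 18.0% and 69.2%, but these came from 3 different regions, and the last was a peak of 119 bp called in P0.5 fibers alone. A region in an intron of Mfsd2a was called in all lists at 11.9%, 9.23%, 12.8% and 34.7%, and one in an intron of Trit1 at 9.74%, 8.27%, 21.5% and 12.6%.

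At Myc, the other region called in all lists was the promoter of Pvt1, a long noncoding RNA gene that begins 52.6 kb downstream. It stood at 11.9% in epithelium and 9.76% in fibers at E14.5, and 17.2% and 18.2% at P0.5. With equal numbers of peaks the E14.5 places were 20.3% in epithelium and 20.6% in fibers, so that no order of the tissues can be read from them. No summit lay between 8.05 kb and 51.8 kb after the Myc start site in any list.

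Motif letters were counted in 200 bp around the strongest summit of 95 regions, leaving out the 2 at the Myc promoter, which were not used here, and set beside the share over 185271 merged regions. Tead letters stood in 20 of the 95 (21.1%, against 13.7%), 10 of them at Mycl. Maf letters stood in 21 (22.1%, against 23.1%), Tcf/Lef in 14 (14.7%, against 11.1%), NF1 half-sites in 13 (13.7%, against 10.9%), Sox in 10 (10.5%, against 7.04%) and Stat in 8 (8.42%, against 4.42%). Less common were Sp/Klf with 6 (6.32%, against 10.8%), AP-1 with 5 (5.26%, against 6.58%), the CTCF core with 5 (5.26%, against 5.63%), Ets with 3 (3.16%, against 4.71%) and E2F with 0 (against 0.519%). The E-box of the Myc and Max proteins stood in 5 regions (5.26%, against 4.41%), and all 5 lay in the Max window, where 40 regions were searched. They include the intron 3 region at 18.5 kb and the region at -3.83 kb, and the others lay 35.7 to 68.5 kb downstream. The Max promoter was not among them, because its E-box at -3 lay outside the 200 bp around the promoter summit. The median GC content of these 200 bp stretches was 51.5% at the 5 Myc regions searched, 55.2% at Mycn, 53.0% at Mycl and 52.2% at Max. Over all regions it was 53.0%.

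The extended Max network listed here holds repressors that pair with Max, and Mlx with its partners. All 9 genes had a promoter peak in each list, as did 60.6% of all coding genes, with median places of 6.84%, 5.18%, 16.5% and 6.94% beside 7.68%, 6.10%, 12.8% and 10.3% for all coding genes. The repressors Mxd1, Mxd4 and Mnt, which pair with Max, had the strongest promoters of the network in each list. Mxd1 stood at 0.0280%, 0.0194%, 0.420% and 0.197%, Mxd4 at 0.0670%, 0.0162%, 0.471% and 0.557%, and Mnt at 0.160%, 0.0234%, 0.562% and 2.85%. In each of the 4 lists Mxd1 and Mxd4 ranked above Max, and Max ranked above Mnt only in P0.5 fibers. Mlxip and Mlxipl, the sugar-responsive partners of Mlx, stood between 6.60% and 48.9%.

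**Figure D5:**
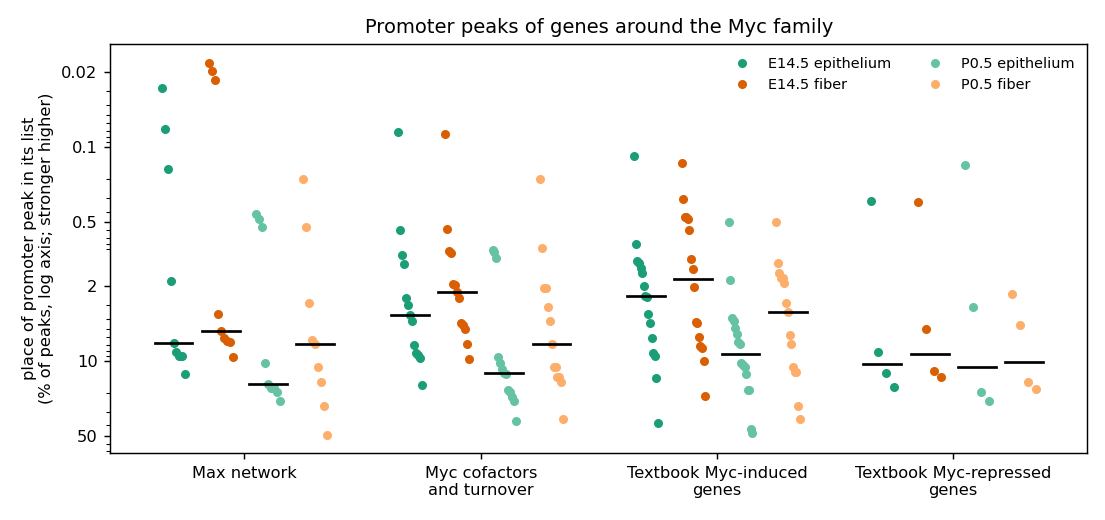
Promoter places (vertical log axis in % of the list, inverted) of the genes of the Max network (9), Myc cofactors and turnover (13), textbook Myc-induced genes (16) and textbook Myc-repressed genes (4) in the 4 pooled lists. Each point is a gene and black lines are medians. The top 3 points of the Max network in both E14.5 lists are Mxd1, Mxd4 and Mnt.

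The 13 cofactors and turnover factors of Myc also had promoter peaks in all lists, with median places of 3.73%, 2.28%, 12.8% and 6.94%. Ep400, a chromatin remodeler, stood at 0.0720%, 0.0752%, 0.917% and 0.197%. Fbxw7, which directs Myc proteins to degradation, stood at 1.01%, 0.985%, 0.946% and 2.09%. Aurka, a kinase known to stabilise N-Myc, stood at 3.0%, 1.89%, 9.10% and 4.22%.

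Of the 16 textbook targets that Myc induces, all had a promoter peak in the first 3 lists and 15 in P0.5 fibers, where Tert was missing. Their median places were 2.49%, 1.70%, 8.67% and 3.45%, above the medians of all coding genes in each list. Ncl, a nucleolar protein, stood at 0.120%, 0.142%, 0.50% and 0.498%, and Odc1, the first enzyme of polyamine synthesis, at 1.22%, 0.308%, 1.73% and 1.69%. The 4 textbook targets that Myc represses were called in every list with medians of 10.6%, 8.67%, 11.4% and 10.2%. Among them Gadd45a, a growth arrest gene, stood at 0.317%, 0.324%, 0.147% and 4.64%, and Cdkn1a, an inhibitor of the cell cycle, at 13.0%, 12.3%, 23.6% and 15.7%. The medians describe these short lists and were not tested.

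The tissues were checked by markers. Of 7 fiber markers, 6 had a promoter peak in every list, and these 6 stood higher in fibers than in epithelium at both stages, as Crybb1 (10.4%, 0.494%, 75.7% and 3.82%) and Mip (16.0%, 2.12%, 36.4% and 14.0%). Crygs was called in E14.5 fibers alone. The 5 epithelial markers had a promoter peak in every list but did not stand higher in epithelium as a group. At E14.5, 2 of the 5 stood higher in epithelium (3 with equal numbers of peaks), and at P0.5, 3 of the 5 (5 with equal numbers). Foxe3 (4.26%, 7.48%, 7.95% and 9.32%) was among them at both stages. Pax6 (3.73%, 0.479%, 6.64% and 6.31%) instead stood higher in fibers, an order that equal numbers of peaks turned at P0.5. By signal, and not by the place of a single promoter peak, the paper reports Pax6 peaks as higher in epithelium. Of 4 vascular markers 2 were called in all lists, with places of 16.2% or weaker, and of 4 markers of neural retina 2 were, with places of 10.3% or weaker. Among pigment and blood markers Tyr, Mlana, Ptprc and Gata1 were called in no list, Spi1 in 3 lists and Pmel in all 4 at 4.95%, 7.21%, 15.1% and 34.7%. The part of other cell types in the values above was not tested.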

How the data were processed

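ATAC-seq libraries came from 4 groups with 2 libraries each. Per the labels and the study's methods, the authors trimmed the paired-end reads with Trim Galore 0.4.1, mapped them to mm10 with Bowtie2 2.3.3.1, removed mitochondrial and duplicated reads with SAMtools 1.2 and Picard 2.1.1, and called peaks with MACS2 2.1 on read pairs (q value 0.05), with no control among the stated parameters. The deposited lists give, per peak, the authors' fold enrichment over the local background (a ratio) and the −log10 p and −log10 q values at the summit, all from pooled libraries. The authors' MACS2 score, as deposited, was not used. Wide open domains enter as 1 peak and weak ones break up, which bears on every count.

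Peaks were ranked by fold enrichment within each list (rank divided by list length), merged at 10 bp with bedtools 2.31.1 and placed on 45756 curated RefSeq transcripts of 26180 genes, with python 3.11.15, pandas 2.3.3, numpy 2.4.6, pysam 0.24.0, scipy 1.17.1 and matplotlib 3.10.9. The steps were tested on simulated data. Genes were named by rule: the members, the fixed lists, neighbours with a start site in a window, and the 3 nearest genes by place. Fntb and Gm35041 were named after their values were seen. The members, lists, motifs and markers were chosen with earlier results of these data known. Blacklisted regions were not removed. Alternatives were a q value under 0.001, the 58592 strongest peaks of each list by p value, merge distances of 0 and 100 bp, a window of 25 kb, promoters of 1 kb and an order by −log10 p.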

Additional observations from a re-analysis of the deposited data

Results flagged for a closer look

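The difference between fibers and epithelium in the place of the Mycn promoter peak changed sign between the stages, at -2.96 percentage points at E14.5, where the fiber peak ranked higher, and 3.05 at P0.5, where the epithelial peak did. At the Max promoter the same difference was -0.0619 points at E14.5 and 0.784 at P0.5, and the first of these turned with equal numbers of peaks per list. With 1 pooled list per group, neither change of sign was tested.

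A region in an intron of Trit1, 53.2 kb after the Mycl start site, was called in fibers at E14.5, at 58.1% of the list, and in epithelium at P0.5, at 52.3%. It was called in neither of the other lists, and with equal numbers of peaks per list it was not among the E14.5 fiber peaks. Both are weak peaks, and the difference was not tested.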

How the results depend on the processing

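Every value rests on 1 pooled list per group, so leaving out a library was not possible. No paired analysis was possible because the pooled lists carry no replicate numbers. Merge distances of 0 and 100 bp moved no count by over 1.5 times. Ordering peaks by −log10 p moved none of the 16 promoter places beyond its 95% binomial interval, and the printed places were identical. Within a list, peaks over the members with equal fold enrichment also had equal q values. This order was thus not an independent check of the places.

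All 30 counts that moved fell, and the cause was the smaller number of peaks or the shorter window that each setting leaves. At a q value under 0.001, peaks fell to 7 over Mycl in P0.5 fibers, and over Max to 7 in epithelium at E14.5 and 5 in fibers at P0.5. Regions over Max fell to 26, and those called in 1 list to 5 at Mycn, 11 at Mycl and 19 at Max. Regions called in P0.5 fibers alone fell to 7 against P0.5 epithelium and to 2 against E14.5 fibers, and those in epithelium at P0.5 alone to 2 against E14.5.

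With the 58592 strongest peaks of each list, at E14.5 epithelium kept 5 peaks over Myc, 5 over Mycn and 5 over Max, and fibers kept 5 over Mycn, 13 over Mycl and 14 over Max. Regions fell to 4 at Myc, 8 at Mycn and 22 at Max, and those called in 1 list to 1 at Myc, 3 at Mycn, 15 at Mycl and 18 at Max. Between the E14.5 tissues, 5 regions were called in epithelium alone and 16 in fibers alone, and between the stages 7 at E14.5 alone in epithelium and 22 in fibers. A window of 25 kb left 4 regions at Myc, 9 at Mycn and 15 at Mycl.

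Promoter places with equal numbers of peaks, for epithelium and fibers at E14.5 and fibers at P0.5 in this order, were 8.80%, 18.5% and 19.5% for Myc, 14.3%, 11.4% and 19.5% for Mycn, 25.3%, 9.63% and 10% for Mycl and 0.975%, 1.08% and 2.52% for Max. A promoter of 1 kb left out the strongest peak of Myc in E14.5 fibers (11.5%) and of Mycn in P0.5 fibers (21.4%).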
